A study of Mus musculus with 6 samples.

Results

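The genes described here are 10 genes of planar cell polarity, out of 20325 genes listed in each library. They are the atypical cadherin receptors Celsr1, Celsr2 and Celsr3, the giant cadherins Fat1, Fat3, Fat4 and Dchs1, and the core components Vangl1, Vangl2 and Prickle1. They were picked by gene symbol, with results of the comparison between both sorted populations already known, so every difference between these populations is given for them as a description and not as a test. RNA was sequenced from Nanog+E-cadherin+ cells (n = 3 libraries) and Nanog+E-cadherin- cells (n = 3 libraries), sorted after fixation from mouse neural stem cell cultures at day 7 of reprogramming with doxycycline. Both groups shared one origin, postnatal day 4 mice of mixed 129/Black 6 strain. These carried 2 copies of the Stemcca allele in ColA1, from which doxycycline induces Oct4, Sox2, c-Myc and Klf4, and 1 copy of the rtTA activator in Rosa26. Nothing in the labels ties a replicate to its own culture or animal, so p-values measure the spread between these libraries, which may be technical. In such bulk libraries, fewer cells of a type and less RNA per cell cannot be told apart.

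Planar cell polarity is the alignment of cells within the plane of a tissue. Its core module places Frizzled with Dishevelled on one face of a cell and Vangl with Prickle on the opposite face, and Celsr proteins bridge both faces by binding each other. A parallel module pairs Fat with Dachsous cadherins, whose binding is tuned by the kinase Fjx1 and which signals in part to the Hippo pathway. In the mouse nervous system, Celsr1 and Vangl2 are needed for neural tube closure, Celsr2 and Celsr3 for the orientation and growth of ependymal cilia, and Celsr3 for the growth of axon tracts.

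The start-site windows of Celsr3 and Celsr2 are shown because these were the members with the largest log2 fold changes once the replicate number was in the model. Both are RefSeq windows on GRCm38.p6, a build other than the mm9 build of the submitters' processing notes, and each runs from 250 bases before the start site through 50 bases from it. The Celsr3 window lies at chr9:108825795-108826094 on the + strand, with a match to TCAGCACCNNGGNCAG in capitals, the letters of an RE1-type element, the kind of site known to bind the neuronal gene repressor REST. The Celsr2 window lies at chr3:108415530-108415829 on the - strand, with matches to the E-box CACCTG, read here as its reverse complement CAGGTG, in capitals. This hexamer is the kind known to bind the Zeb and Snail repressors of E-cadherin.
Celsr3: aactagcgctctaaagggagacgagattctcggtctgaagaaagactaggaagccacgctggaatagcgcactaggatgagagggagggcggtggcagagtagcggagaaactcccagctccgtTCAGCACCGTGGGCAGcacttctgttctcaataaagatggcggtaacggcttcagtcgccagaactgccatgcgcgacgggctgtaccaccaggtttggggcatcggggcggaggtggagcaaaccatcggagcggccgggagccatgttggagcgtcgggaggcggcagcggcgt
Celsr2: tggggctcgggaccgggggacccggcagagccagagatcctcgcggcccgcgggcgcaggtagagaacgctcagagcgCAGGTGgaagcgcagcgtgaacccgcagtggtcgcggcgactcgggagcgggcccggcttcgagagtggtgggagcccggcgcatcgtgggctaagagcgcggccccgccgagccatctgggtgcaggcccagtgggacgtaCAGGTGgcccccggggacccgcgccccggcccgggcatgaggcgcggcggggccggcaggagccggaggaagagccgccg
Both motifs were searched on both strands, and both were chosen after the windows had been read. The RE1-type letters were taken from the Celsr3 window itself, with the positions marked N free, so that the match there is by construction. Of 32851 windows of 300 bases in the table, 13 held the RE1-type letters, which is 0.0396%, and 6640 held the E-box, which is 20.2%. The table held windows for 7 of the 10 members, with 2 for Prickle1, and none for Celsr1, Dchs1 and Vangl1. Celsr3 was the only one of these 7 genes with the RE1-type letters, starting 126 bases before the start site. Its window held no E-box. The E-box was present in windows of 4 of the 7 genes, namely Celsr2, Fat1, Vangl2 and Prickle1. The Celsr2 window held 2 matches, starting 172 and 30 bases before the start site. A match is a description of these letters and not a bound site.

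Total expected counts ran from 12345327 to 20934553 in Nanog+E-cadherin+ libraries and from 8851110 to 39630916 in Nanog+E-cadherin- libraries. Cdh1 followed the gate, with 129 ± 21.3 CPM (counts scaled to library size with edgeR's TMM factors) in Nanog+E-cadherin+ cells and 17.4 ± 2.53 CPM in Nanog+E-cadherin- cells (SD, n = 3 each). The exact two-sided permutation test of log2 CPM gave p = 0.1 for Cdh1, the smallest value possible with 3 libraries against 3, and p = 0.7 for Nanog. The neural stem marker Nes lay between 86.0 and 346 CPM in Nanog+E-cadherin+ libraries and between 105 and 311 CPM in Nanog+E-cadherin- libraries, while the late pluripotency gene Zfp42 was at 0.53 CPM or less in all 6. Nanog+E-cadherin- replicates 2 and 3 stood apart in reads on olfactory and vomeronasal receptor genes. Summed over 1446 such genes, these came to 31.9, 155 and 112 CPM of the library total in Nanog+E-cadherin+ replicates 1 to 3, against 36.1, 1886 and 1215 CPM in Nanog+E-cadherin- replicates 1 to 3. The pair numbered 1 was low in these reads in both populations.

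**Figure D1:**
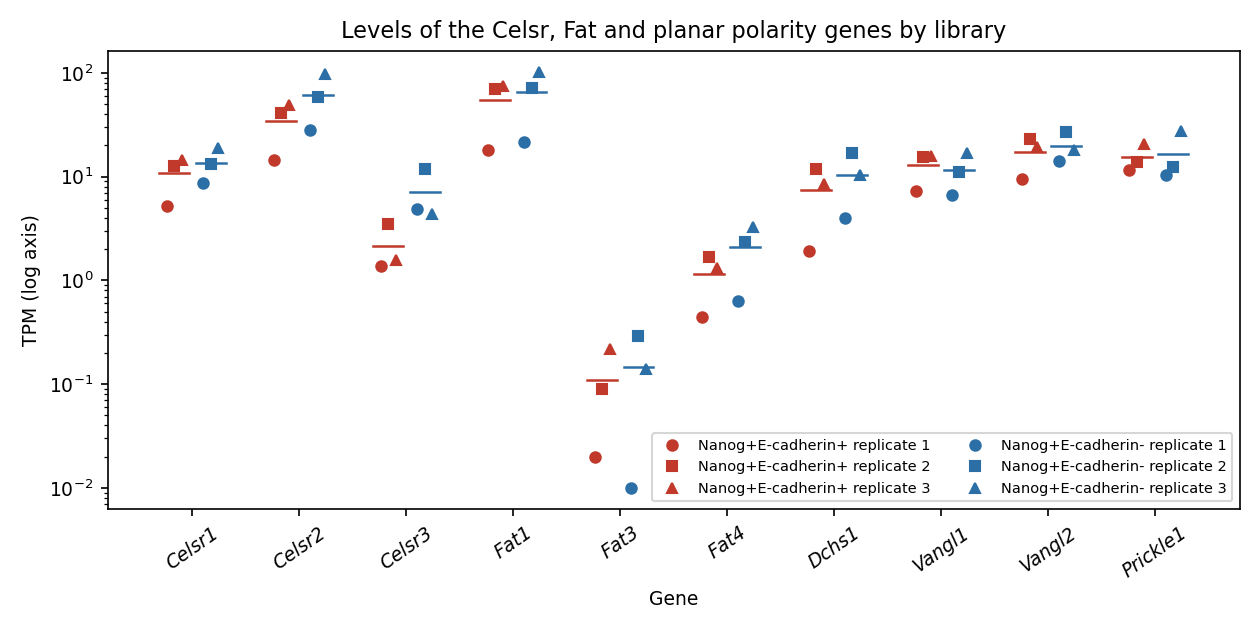
Levels of the 10 genes in each library, in TPM (the deposited transcript abundance, scaled to transcript length and library) on a log axis, with Nanog+E-cadherin+ libraries in red and Nanog+E-cadherin- libraries in blue. Marker shapes give the replicate number and horizontal lines the group means. Fat1 and Celsr2 lie at the top in all 6 libraries, Fat3 lies lowest, and Celsr3 is the gene whose groups do not overlap.

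Levels per length spanned a wide range, and their order was much alike in both populations. Fat1 averaged 54.4 ± 31.6 TPM in Nanog+E-cadherin+ cells and 65.2 ± 40.9 TPM in Nanog+E-cadherin- cells, and Celsr2 averaged 34.7 ± 18.0 TPM and 61.5 ± 35.3 TPM in the same order of groups (SD, n = 3 each). These genes held ranks 1 and 2 of the 10 in every library, with Celsr2 ahead of Fat1 only in Nanog+E-cadherin- replicate 1. Vangl2, Prickle1, Vangl1 and Celsr1 followed with group means between 10.8 and 17.4 TPM in Nanog+E-cadherin+ cells and between 11.5 and 19.7 TPM in Nanog+E-cadherin- cells. Their order varied between libraries in part: Vangl2 was above Vangl1 in all 6, while Prickle1 held ranks 3 to 6 and Vangl1 ranks 4 to 8. Dchs1 lay below them on average, at 7.42 ± 5.05 TPM against 10.4 ± 6.40 TPM (SD, n = 3 each). Celsr3, Fat4 and Fat3 were the lowest of the 10 on average, and Fat4 and Fat3 held ranks 9 and 10 in all 6 libraries. On average, libraries numbered 1 were lower than the others for every member. Mean levels in the 4 libraries numbered 2 and 3 over those in the 2 libraries numbered 1 came to 4.01 for Fat1, 4.03 for Fat4, 4.02 for Dchs1, 2.91 for Celsr2 and 1.71 for Celsr3, as ratios of TPM. As ratios of CPM they were smaller, at 2.55, 2.56, 2.59, 1.85 and 1.10 in the same order of genes.

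Celsr3, the family member known for axon guidance, was lower in Nanog+E-cadherin+ cells by a wide margin. It stood at 1.38, 3.47 and 1.57 TPM in Nanog+E-cadherin+ replicates 1 to 3, against 4.86, 11.85 and 4.41 TPM in Nanog+E-cadherin- replicates 1 to 3. Every Nanog+E-cadherin+ library lay below every Nanog+E-cadherin- library. These values rested on 225, 251 and 189 expected counts in Nanog+E-cadherin+ cells, against 1448, 754 and 218 in Nanog+E-cadherin- cells. Celsr3 averaged 13.6 ± 4.88 CPM in Nanog+E-cadherin+ cells and 42.9 ± 21.3 CPM in Nanog+E-cadherin- cells (SD, n = 3 each). With group as the only term, its log2 fold change was -1.66 ± 0.45 (SE). The log2 ratios within the pairs numbered 1, 2 and 3 were -1.72, -1.78 and -1.27. Its log2 fold change was -1.59 without both Nanog+E-cadherin- libraries rich in receptor reads. That fit leaves replicate 1 alone in its group and without pairing. The part of the receptor reads in the Celsr3 difference was not tested. Adding the replicate number to the model of all libraries gave -1.60 ± 0.22 (SE). Celsr3 was the only member whose groups did not overlap, where 3.25% of all 13460 genes tested had Nanog+E-cadherin+ libraries wholly below, 3.74% wholly above and 6.99% either.

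Celsr2, which acts with Celsr3 in ependymal cilia, was also lower in Nanog+E-cadherin+ cells, by a smaller amount. It stood at 14.35, 41.0 and 48.8 TPM in Nanog+E-cadherin+ replicates 1 to 3, against 28.0, 58.1 and 98.4 TPM in Nanog+E-cadherin- replicates 1 to 3. The groups overlapped, since both libraries numbered 1 were low, yet each Nanog+E-cadherin+ library was below its equally numbered partner. The log2 ratios of CPM in these pairs were -0.86, -0.52 and -0.80. Over all libraries its log2 fold change was -0.72 ± 0.40 (SE), or -0.73 ± 0.14 (SE) in the blocked fit. Without both Nanog+E-cadherin- libraries rich in receptor reads, and thus with replicate 1 alone in its group, it was -0.13 ± 0.51 (SE).

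Celsr1, the member needed for neural tube closure, differed little. It stood at 5.27, 12.8 and 14.4 TPM in Nanog+E-cadherin+ replicates 1 to 3, against 8.73, 13.3 and 18.9 TPM in Nanog+E-cadherin- replicates 1 to 3. The groups overlapped. The log2 ratios of CPM in the pairs were -0.63, -0.06 and -0.18, and the log2 fold change over all libraries was -0.26 ± 0.28 (SE).

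Celsr2 was the main part of Celsr messenger RNA in both populations, and of the 3 shares only that of Celsr1 did not overlap. As a share of summed Celsr1, Celsr2 and Celsr3 TPM, Celsr2 made up 68.3% to 75.4% in Nanog+E-cadherin+ libraries and 67.3% to 80.8% in Nanog+E-cadherin- libraries. Celsr1 made up 25.1%, 22.3% and 22.2% in Nanog+E-cadherin+ replicates 1 to 3, against 21.0%, 15.9% and 15.5% in Nanog+E-cadherin- replicates 1 to 3, with no overlap. How often such shares part both groups in other gene families was not counted, so nothing is read from this. Celsr3 made up 6.57%, 6.07% and 2.43% against 11.7%, 14.2% and 3.62% in the same order, so its share was lower in each pair but the groups overlapped through Nanog+E-cadherin- replicate 3. These 3 transcripts are of similar length, between 10515 and 11547 bases, so their shares compare transcripts of like length.

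**Figure D2:**
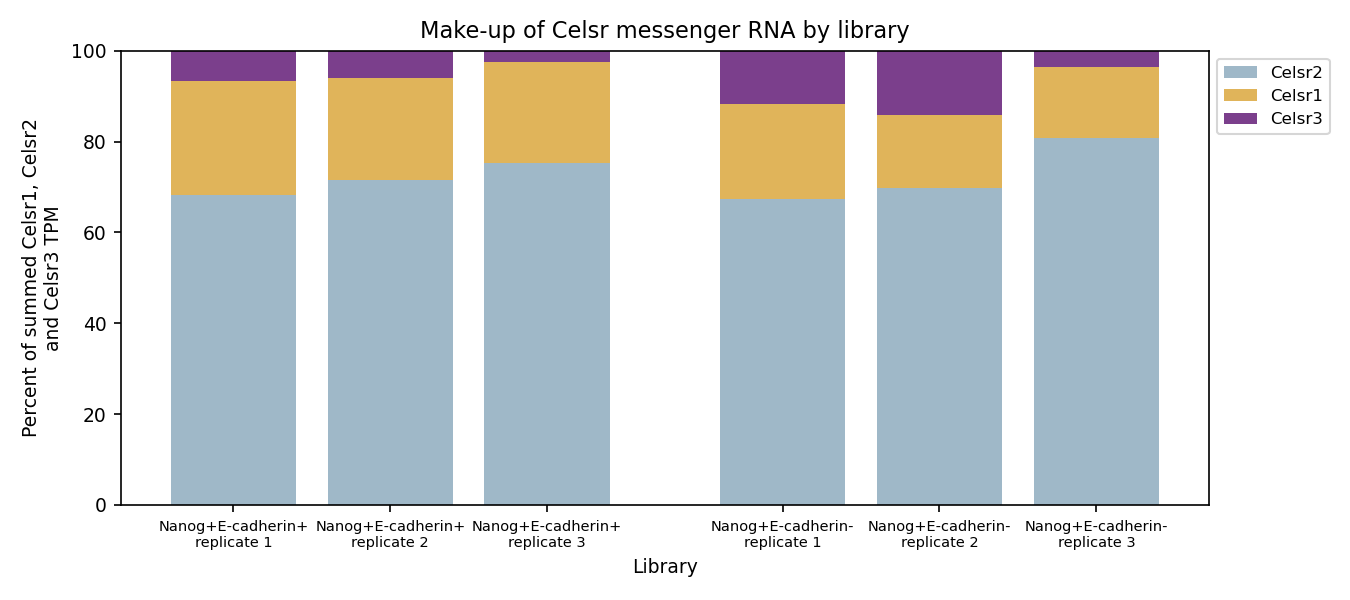
Share of each Celsr gene in the summed TPM of all 3, as percent, with Nanog+E-cadherin+ libraries on the left and Nanog+E-cadherin- libraries on the right. Celsr2 forms the largest part of every bar, and the Celsr3 part runs from 2.43% to 6.57% on the left and from 3.62% to 14.2% on the right.

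The levels of the neuron markers were set beside Celsr3, since Celsr3 is best known from neurons. Of 12 such genes tested, 10 were fitted lower in Nanog+E-cadherin+ cells and 2, Stmn2 and Gap43, higher, where 51.5% of all genes were fitted lower. Tubb3 and Nsg2 passed edgeR's test with the replicate block as lower (adjusted p = 0.0370 and 0.0371), where 0.0892% of all genes did. The summed level of the 12 genes was 1037, 432 and 243 CPM in Nanog+E-cadherin+ replicates 1 to 3. It was 1466, 741 and 383 CPM in Nanog+E-cadherin- replicates 1 to 3, so the groups overlapped but each pair was lower. The neuronal nuclear protein gene Rbfox3 was at 3.20 CPM or less in all libraries and at 0 in Nanog+E-cadherin- replicate 3. Celsr3 itself stood at 12.4, 19.0 and 9.45 CPM in Nanog+E-cadherin+ replicates 1 to 3, against 40.7, 65.2 and 22.9 CPM in Nanog+E-cadherin- replicates 1 to 3. The gene of the microtubule protein tau, Mapt, ordered the libraries the same way within each group, at 149, 210 and 89.1 CPM against 253, 278 and 150 CPM. It was the only one of the 12 neuron markers to do so in both groups, and was named after its values were seen. Among the others, the neuronal tubulin gene Tubb3 stood at 342, 78.4 and 31.1 CPM against 631, 249 and 75.4 CPM. The part of neuronal cells in the Celsr3 difference was not tested. Ependymal markers were summed at 154 to 607 CPM in Nanog+E-cadherin+ libraries and at 145 to 432 CPM in Nanog+E-cadherin- libraries. Most of each sum was the cilium regulator Foxj1, at 118, 311 and 566 CPM against 99.4, 396 and 341 CPM in replicates 1 to 3. Foxj1 was the only 1 of the 4 ependymal genes tested that was fitted higher in Nanog+E-cadherin+ cells, and the other 3 were fitted lower. Of the other marker lists, 8 of 8 epithelial genes were fitted higher in Nanog+E-cadherin+ cells, where 6522 of all 13460 genes tested were. Their sums were 99.4 to 206 CPM against 69.5 to 83.8 CPM. Of 4 pluripotency genes tested 1, Tdgf1, passed as higher with the block (edgeR, adjusted p = 0.0490), where 29 of all 13460 genes did. Neural stem, astrocyte, oligodendrocyte, fibroblast and endothelial lists overlapped in their sums and held 0 genes past either edgeR fit, and microglia and blood markers summed to at most 3.77 CPM. None of the 4 ependymal genes tested passed in either fit (edgeR, smallest adjusted p = 0.487 with the block).

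The genes whose pattern over the 6 libraries was most like that of each Celsr gene were found by the root mean square difference of centred log2 CPM, among tested genes of at least 5 CPM on average. For Celsr3 these were Dscaml1, Srrm4 and Brsk2, at 0.21, 0.26 and 0.34 log2 units. For Celsr2 they were 4933432B09Rik, Thbs3 and Abhd2, at 0.11, 0.12 and 0.13 log2 units. For Celsr1 they were Acap3, Sepn1 and Cabin1, each at 0.09 log2 units. Among the other members, Vangl2 and Dchs1 lay nearest to Celsr3, at 0.81 and 0.88 log2 units.

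Fat1, a giant cadherin that restrains growth and shapes cell contacts, was the most abundant member on average and differed little between populations. It stood at 18.0, 70.4 and 74.7 TPM in Nanog+E-cadherin+ replicates 1 to 3, against 21.8, 70.85 and 103 TPM in Nanog+E-cadherin- replicates 1 to 3. Both libraries numbered 1 were far below the other 4, and the groups overlapped. The log2 ratios of CPM in the pairs were -0.18, -0.02 and -0.25, and the log2 fold change over all libraries was -0.15 ± 0.50 (SE). Without both Nanog+E-cadherin- libraries rich in receptor reads its sign was the opposite, at 0.85. That fit leaves the low replicate 1 alone in its group, against all 3 Nanog+E-cadherin+ libraries and without pairing.

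Fat4, the receptor of Dachsous in the mouse, was scarce and lower in Nanog+E-cadherin+ cells within each pair. It stood at 0.44, 1.68 and 1.33 TPM in Nanog+E-cadherin+ replicates 1 to 3, against 0.63, 2.34 and 3.28 TPM in Nanog+E-cadherin- replicates 1 to 3. The groups overlapped. The log2 ratios of CPM in the pairs were -0.42, -0.49 and -1.09, and the log2 fold change over all libraries was -0.73 ± 0.53 (SE). Without both Nanog+E-cadherin- libraries rich in receptor reads it had the opposite sign, at 0.42. That fit leaves replicate 1, the lowest of its group, alone there and without pairing. Set against its relatives, Fat4 made up 2.38%, 2.33% and 1.74% of summed Fat1, Fat3 and Fat4 TPM in Nanog+E-cadherin+ replicates 1 to 3, against 2.80%, 3.18% and 3.08% in Nanog+E-cadherin- replicates 1 to 3. These shares did not overlap, although the levels of Fat4 itself did. Fat1 made up at least 96.4% of the sum in every library, so the share is close to the ratio of Fat4 to Fat1. How often such ratios part both groups over other genes was not counted, so nothing is read from it.

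Fat3, known from retinal neurons, was near the limit of detection. It had 5, 10 and 42 expected counts in Nanog+E-cadherin+ replicates 1 to 3, against 5, 30 and 11 expected counts in Nanog+E-cadherin- replicates 1 to 3. Its pairs had log2 ratios of 0.97, -1.78 and 0.86, so the order of the groups differed, and the log2 fold change of -0.28 ± 1.24 (SE) leaves its direction undetermined at this depth.

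Dchs1, the Dachsous ligand that pairs with Fat4, lay between these genes in level. It stood at 1.91, 11.8 and 8.55 TPM in Nanog+E-cadherin+ replicates 1 to 3, against 4, 16.8 and 10.3 TPM in Nanog+E-cadherin- replicates 1 to 3. Each Nanog+E-cadherin+ library was below its partner, and both libraries numbered 1 were lowest in their group. The log2 ratios of CPM in the pairs were -0.97, -0.52 and -0.06. The log2 fold change was -0.43 ± 0.54 (SE) over all libraries and -0.51 ± 0.22 (SE) with the block. It had the opposite sign, at 0.40, without both Nanog+E-cadherin- libraries rich in receptor reads. That fit leaves replicate 1, the lowest of its group, alone there and without pairing.

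The cytoplasmic and membrane components of the Vangl face showed small differences of mixed direction. Vangl1, a membrane protein that acts in part redundantly with Vangl2, stood at 7.30, 15.6 and 15.7 TPM in Nanog+E-cadherin+ replicates 1 to 3, against 6.59, 11.2 and 16.8 TPM in Nanog+E-cadherin- replicates 1 to 3. It was the only member higher in CPM in all 3 pairs, with log2 ratios of 0.25, 0.48 and 0.17, where 18.9% of all genes tested were, although by TPM it was lower in pair 3. The log2 fold change of Vangl1 was 0.29 ± 0.29 (SE) over all libraries.

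Vangl2, the gene mutated in the loop-tail mouse, stood at 9.60, 23.3 and 19.4 TPM in Nanog+E-cadherin+ replicates 1 to 3, against 14.2, 26.9 and 18.0 TPM in Nanog+E-cadherin- replicates 1 to 3. The groups overlapped, with log2 ratios of CPM of -0.46, -0.21 and 0.32 in the pairs, and the log2 fold change was -0.12 ± 0.30 (SE). The ratio of Vangl2 to Vangl1 TPM was 1.32, 1.49 and 1.24 in Nanog+E-cadherin+ cells, against 2.16, 2.41 and 1.08 in Nanog+E-cadherin- cells, so Vangl2 was the more abundant of the pair in all 6 libraries.

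Prickle1, a cytoplasmic partner of Vangl, stood at 11.7, 13.7 and 20.6 TPM in Nanog+E-cadherin+ replicates 1 to 3, against 10.3, 12.4 and 27.3 TPM in Nanog+E-cadherin- replicates 1 to 3. Both groups had their highest value in replicate 3. Its log2 fold change was 0.04 ± 0.34 (SE), and the pairs were at 0.29, 0.14 and -0.19.

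**Figure D3:**
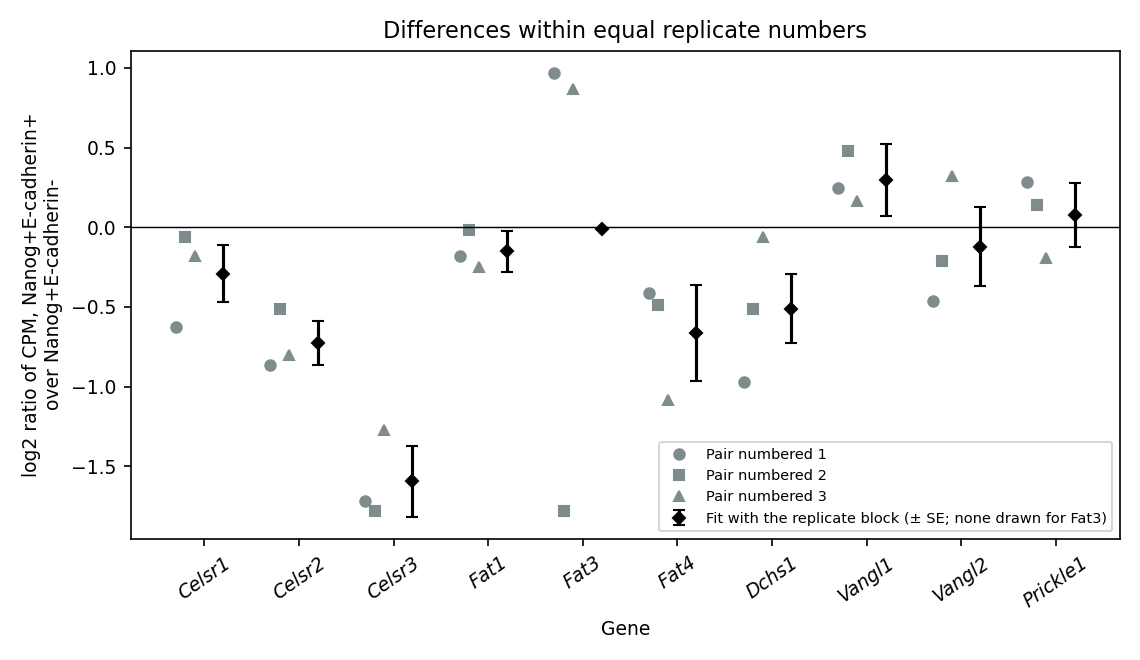
log2 ratio of CPM, Nanog+E-cadherin+ over Nanog+E-cadherin-, within each pair of equal replicate number (grey, marker by number) and from edgeR's fit with the replicate block (black, ± SE). All 3 pairs lie below 0 for Celsr1, Celsr2, Celsr3, Fat1, Fat4 and Dchs1, above 0 for Vangl1, and on both sides for the other 3 genes.

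All 10 members passed the filter on low counts. With group as the only term, edgeR's quasi-likelihood test called 0 of the 10, where it called 0% of all 13460 genes tested, and 1 member had an unadjusted p under 0.05, as did 359 genes or 2.67%. DESeq2's Wald test with group only also called 0 members, against 0.156% of all genes. It gave no adjusted p for 7834 genes, among them 6 members including Celsr3, so these could not be called. With limma on log2(TPM + 1), 0 members were called, where 0 of all 13460 genes tested were. With the replicate block edgeR called 1 member, Celsr3, where 0.305% of all genes tested were called in either direction and 0.0892% as lower. DESeq2 with the block called 2, Celsr3 and Celsr2, where 2.26% of all genes were called. In CPM, 6 of the 10 members were lower in all 3 pairs, where 17.3% of all genes were. This count of 6 was the same with scaling by library totals or by DESeq2 size factors. The median log2 fold change with group only was -0.27 over the members and -0.01 over all genes tested. Since the comparison was in view when the members were picked, nothing is read from these counts.

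Transcript length moved with the difference between populations over all genes, and most of the members have long transcripts. The members ran from 2260 bases for Vangl2 to 18468 bases for Fat3, with 7 of 10 at 10000 bases or more, while the median over all tested genes was 2839 bases. With the block, the median log2 fold change was 0.14 over the 3942 tested genes under 2000 bases and -0.28 over the 227 of at least 10000 bases, 83.3% of which were fitted lower with group only. Of these 227 long genes 37.4% were lower in all 3 pairs, more than the 17.3% of all genes. The blocked log2 fold change of Celsr1, at -0.29, was close to that median of long genes, those of Fat1 (-0.15) and Fat3 (-0.01) lay above it, and those of Fat4 (-0.66) and Dchs1 (-0.51) lay below it. Celsr3 was further from it, as 8 of the 227 long genes had a lower value, and 27 had a lower value than Celsr2. With offsets that take out the relation to length in each library, an alternative chosen after the data were seen, the blocked log2 fold changes were -1.34 ± 0.24 for Celsr3, -0.49 ± 0.12 for Celsr2 and 0.17 ± 0.12 for Fat1 (SE). Those of the other long members moved toward 0 by over 1.5 times, to -0.043 ± 0.18 for Celsr1, -0.32 ± 0.28 for Fat4 and -0.28 ± 0.24 for Dchs1 (SE), apart from Fat3, which was at 0.39. Celsr3 was then no longer past the threshold. The libraries also differed in length by replicate number, since over the same 227 genes the median log2 ratio of libraries numbered 2 and 3 to those numbered 1 was 0.78.

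**Figure D4:**
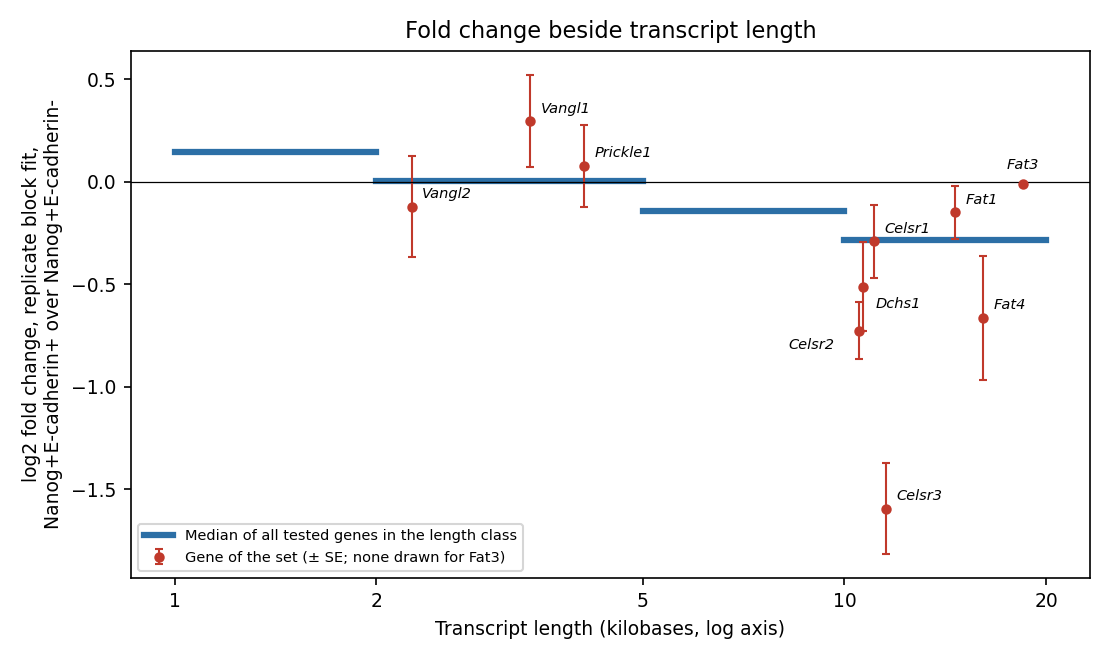
log2 fold change with the replicate block, Nanog+E-cadherin+ over Nanog+E-cadherin-, beside transcript length in kilobases on a log axis. Red points are the 10 genes (± SE) and blue bars the medians of all tested genes per length class, the first class holding all genes under 2000 bases and the last all from 10000 bases. The class medians step down from 0.14 to -0.28, and Celsr3 lies well below its class.

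Of the other components of planar polarity, none passed in either edgeR fit of all 6 libraries. The other core genes, Fat and Dachsous partners, ligands, receptors and effectors came to 44 listed genes, of which 41 were in the files and 39 passed the filter. By edgeR's quasi-likelihood test 0 of the 39 passed with group only, where 2 had an unadjusted p under 0.05 against 2.67% of all genes. With the block 0 passed, and 10 had an unadjusted p under 0.05 (8 lower, 2 higher), against 10.7% of all genes. DESeq2's Wald test called 0 with group only and 1, the ciliary planar polarity effector Intu, with the block, where it called 2.26% of all genes. With group only 24 of the 39 were fitted lower, as were 51.5% of all genes. Their median was -0.12 on the log2 scale, against -0.01 over all genes. Intu averaged 26.4 ± 7.00 CPM in Nanog+E-cadherin+ cells and 77.7 ± 49.6 CPM in Nanog+E-cadherin- cells (SD, n = 3 each), where the libraries rich in receptor reads, at 101 and 111 CPM, were far above the other one, at 20.8 CPM. In the pairs, Intu had log2 ratios of -0.16, -1.83 and -1.79. Its adjusted p with the block was 0.208 in edgeR's test, the smallest of the 39, and 0.00013 without both libraries numbered 1.

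No other core component of either face passed. Fzd3, a Frizzled that acts with Celsr3 in axon growth, stood at 60.0 ± 13.0 CPM in Nanog+E-cadherin+ cells and 99.98 ± 55.9 CPM in Nanog+E-cadherin- cells, and Fzd6, its partner in hair and neural tube patterning, stood at 17.3 ± 6.00 CPM and 21.4 ± 8.86 CPM (SD, n = 3 each). The Dishevelled gene Dvl2 stood at 105 ± 1.89 CPM in Nanog+E-cadherin+ cells and 76.8 ± 29.3 CPM in Nanog+E-cadherin- cells. Prickle2 stood at 16.7 ± 6.08 CPM against 25.8 ± 9.21 CPM, and the Diversin gene Ankrd6 at 96.4 ± 37.2 CPM against 126 ± 52.5 CPM, in the same order of groups. The Fat-Dachsous kinase Fjx1 stood at 18.6 ± 2.51 CPM in Nanog+E-cadherin+ cells and 24.5 ± 4.87 CPM in Nanog+E-cadherin- cells (SD, n = 3 each), with Nanog+E-cadherin+ libraries wholly below, as they were for 3.25% of all genes. It was the only one of the 39 so placed, and 3, Dvl2, Rock1 and Smurf1, had them wholly above, against 3.74% of all genes. Fat2 was at 2.16 CPM or less in every library and Dchs2 was not analysed here.

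The genes of noncanonical Wnt input and the effectors named next did not pass in either edgeR fit. Wnt5a, the ligand best known for orienting planar polarity, stood at 15.8 ± 7.62 CPM in Nanog+E-cadherin+ cells and 12.6 ± 3.30 CPM in Nanog+E-cadherin- cells, and its receptor Ror2 at 45.6 ± 14.1 CPM and 35.9 ± 14.1 CPM (SD, n = 3 each). The co-receptor Ptk7 stood at 233 ± 29.1 CPM against 240.0 ± 32.4 CPM. The scaffold Scrib stood at 224 ± 21.3 CPM against 197 ± 14.6 CPM, the formin Daam1 at 25.2 ± 9.76 CPM against 38.1 ± 14.9 CPM, and the ciliary effector Fuz at 47.1 ± 7.82 CPM against 47.2 ± 4.60 CPM.

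**Figure D5:**
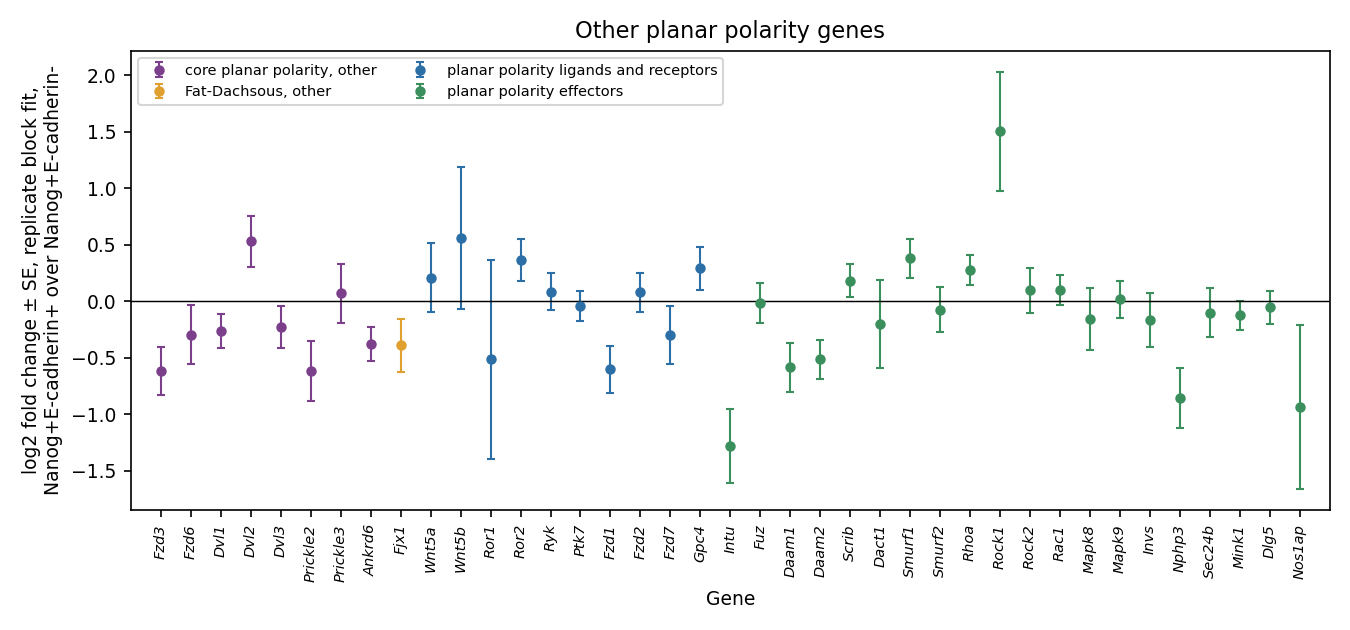
log2 fold change ± SE with the replicate block, Nanog+E-cadherin+ over Nanog+E-cadherin-, for the 39 other planar polarity genes tested, coloured by list. No point passed an adjusted p of 0.05 in this fit, and Intu and Rock1 lie farthest below and above 0.

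The Hippo pathway, which Fat cadherins feed into, showed no gene past the threshold in either edgeR fit. Of 25 genes found in the files 24 were tested, and 0 passed with group only, where 0 had an unadjusted p under 0.05. With the block 0 passed and 2 had an unadjusted p under 0.05 (1 lower, 1 higher), against 10.7% of all genes. DESeq2's Wald test called 0 with either design. The coactivator Yap1 stood at 175 ± 14.4 CPM in Nanog+E-cadherin+ cells and 171 ± 47.3 CPM in Nanog+E-cadherin- cells, and its paralog Wwtr1 at 114 ± 34.4 CPM and 120 ± 32.7 CPM (SD, n = 3 each). The kinase Lats2 stood at 35.2 ± 19.1 CPM against 43.6 ± 28.1 CPM, and the DNA-binding partner Tead2 at 257 ± 46.5 CPM against 266 ± 122 CPM. The Yap targets Ctgf and Cyr61 had log2 fold changes of 0.36 ± 0.39 and 0.34 ± 0.33 (SE, group only). With the block these were 0.30 ± 0.24 and 0.35 ± 0.15 (SE), and Cyr61 was the 1 higher gene counted above.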

How the data were processed

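RNA-seq libraries were made with a TruSeq kit from RNA of fixed, sorted and decrosslinked cells, per the labels' protocols. The submitters' processing notes list RSEM 1.2.4, Bowtie and build mm9, and the sources used here give neither settings nor the use of strand. Noncoding RNA genes annotated on GRCm38 overlap the spans of Celsr2, Celsr3, Fat4 and Vangl1, introns included. Whether they share exons with these genes, and so reads, was not checked. Each deposited file gives, per the file headers, an expected count, TPM and FPKM per gene. The authors' expected counts were rounded to whole numbers, the authors' TPM served for levels between genes, and the deposited FPKM entered no step.

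The test was edgeR 4.0.16 in R 4.3.3 (TMM, filterByExpr with a minimum count of 10 and a minimum total of 15, quasi-likelihood, Benjamini-Hochberg over all 13460 genes tested, threshold 0.05), with group as the only term. SE is the log2 fold change over the root of its F statistic. At 5 CPM the libraries held 47.7 to 178 counts. Alternatives used DESeq2 1.42.0, limma 3.58.1, other scalings, fewer libraries, no filter, length offsets and the replicate block. Same-numbered libraries deviated together (correlations across genes of 0.45 to 0.79, against -0.65 to 0.16 for other pairs, with a limit of 0.1), so numbers were taken to pair libraries, on the values and not the labels.

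The members and lists were chosen with earlier results of these data known. The text names all members, 21 fixed genes of the other lists and any of those lists past the threshold with group only or the block, Cdh1 and Nanog, marker lists by count, and 3 neighbours of each Celsr gene. Nes, Zfp42, Tubb3, Nsg2, Rbfox3, Mapt, Stmn2, Gap43, Foxj1, Tdgf1, Rock1 and Smurf1, of the same lists, were named after their values were seen.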

Additional observations from a re-analysis of the deposited data

How the results depend on the processing

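Celsr1, Celsr2, Celsr3 and Vangl1 kept their direction in all 20 alternatives run for each, but not their size: Celsr3 ran from -1.97 to -1.23, Celsr2 from -0.97 to -0.13 (-0.36 without Nanog+E-cadherin- replicate 3), Celsr1 from -0.44 to -0.043 (-0.054 without Nanog+E-cadherin+ replicate 1) and Vangl1 from 0.16 to 0.56. Values whose sign turned were as follows. Over the fits that left out libraries, Fat1 ran from -0.47 to 0.22, Fat3 from -1.27 to 0.90 (0.78 at most with group only), Dchs1 from -0.79 to 0.033, Vangl2 from -0.33 to 0.083 (-0.27 to 0.053 with group only) and Prickle1 from -0.16 to 0.39. Without both Nanog+E-cadherin- libraries rich in receptor reads, an alternative added after the data were seen, Fat1 was at 0.85, Fat3 at 2.85, Fat4 at 0.42 and Dchs1 at 0.40. That fit holds replicate 1 alone in the Nanog+E-cadherin- group, without pairing. Libraries numbered 1 were on average lower than the others for these genes. With length offsets Fat1 was at 0.18 and Fat3 at 0.17, and with the replicate block as well at 0.17 and 0.39. Fat3 was at 0.045 in DESeq2 with the block. Prickle1 was at -0.0076 with library totals and at -0.027 and -0.024 with limma on log2(TPM + 1) and log2(TPM + 0.1). The cause was not tested.

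The replicate block moved the count of all genes called from 0 to 41 and of members from 0 to 1 and left those of the other planar polarity and Hippo genes at 0. All genes called came to 1 with no filter, 21 with DESeq2, 304 with DESeq2 and the block, 1 with length offsets and 36 with these and the block. Members called came to 2 with DESeq2 and the block, and other planar polarity genes to 1. Without a single library, or with the block and without both of 1 number, all genes called ran from 0 to 449 (149, 140 and 449 with the block and without number 1, 2 or 3), members from 0 to 3, and other planar polarity and Hippo genes from 0 to 1 each. The 3 members were Celsr2, Celsr3 and Dchs1, in the blocked fit that lacks number 3. With group only, no single library left out changed any of these 4 counts. Fat3, at 5 to 42 counts, is limited by depth.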
